A study of Homo sapiens with 8 samples.

Results

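GNAO1 and a group of genes around it, which encode G protein alpha subunits and their RGS regulators, were followed library by library in LP-1 myeloma cells. The group holds 10 of the 18564 genes in the table: the alpha subunits GNAO1, GNAI2, GNAI3 and GNA13, and the regulators RGS1, RGS2, RGS10, RGS13, RGS16 and RGS19. GNAO1 and RGS1 were picked on their wide differences between libraries of 1 condition, so that spread is given as a description and not tested. The other 8 genes were taken as relatives of these.

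LP-1 is an established human cell line from a multiple myeloma, a cancer of plasma cells. RNA was sequenced from wild-type (WT) LP-1 cells and from a bortezomib-resistant (BR) derivative that had been kept with bortezomib, a proteasome inhibitor, for 2 months. Cells of each line received DMSO vehicle or 25 nM SI-2, an inhibitor of the coactivator SRC-3, for 24 h, which gave the 4 conditions WT vehicle, WT SI-2, BR vehicle and BR SI-2. Each condition had 2 libraries, numbered 1 and 2 in the labels, and no source used here says whether the BR cells were a clone or whether libraries of 1 number were grown together. Estimated counts on genes summed to between 17997771 and 18570027 a library, and levels are given as CPM, estimated counts scaled to library size with TMM factors, unless FPKM, which also divides by transcript length, is named.

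Heterotrimeric G proteins carry signals from seven-transmembrane receptors: the alpha subunit binds GTP when a receptor is activated and separates from the beta and gamma subunits. RGS proteins speed up GTP hydrolysis by alpha subunits and so shorten the signal. In B cells and plasma cells, Gi-coupled chemokine receptors such as CXCR4 guide migration and homing to bone marrow, while the Go alpha subunit encoded by GNAO1 is best known from neurons.

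The promoters of GNAO1 and RGS1 are shown because these genes carry the widest differences, and because they differ in base composition. RefSeq (GRCh38.p14) held a promoter for 10 of the 10 genes. The GNAO1 sequence is chr16:56191239-56191488 on the plus strand and the RGS1 sequence is chr1:192575523-192575772 on the plus strand, each the 250 bases before the gene's annotated start, 5′ to 3′, with the motif match in capitals.
GNAO1: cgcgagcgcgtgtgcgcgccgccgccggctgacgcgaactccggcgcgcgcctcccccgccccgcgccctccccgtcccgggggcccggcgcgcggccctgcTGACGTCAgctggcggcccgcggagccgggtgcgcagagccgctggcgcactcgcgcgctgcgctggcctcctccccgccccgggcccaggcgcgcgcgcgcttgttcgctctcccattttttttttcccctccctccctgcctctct
RGS1: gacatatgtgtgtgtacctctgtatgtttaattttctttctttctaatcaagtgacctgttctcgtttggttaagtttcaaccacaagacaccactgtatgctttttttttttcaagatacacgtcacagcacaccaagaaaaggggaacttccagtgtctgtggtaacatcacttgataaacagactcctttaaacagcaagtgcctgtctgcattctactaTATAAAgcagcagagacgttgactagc

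In the 300 bases that also include the 50 bases after the start, the GNAO1 promoter had a GC content of 78.3% and 48 CpG dinucleotides, and the RGS1 promoter had a GC content of 41.7% and 6 CpG dinucleotides. The median over 27305 RefSeq promoters of this length was 58.3% GC and 14 CpG dinucleotides. Among the relatives, GC content ran from 33.7% at RGS13 to 81.3% at GNA13. The letters TGACGTCA, the palindromic cAMP response element, lay 148 bases before the start of GNAO1 and were present in 1.98% of all promoters. The letters TATAAA lay 27 bases before the start of RGS1 and were present, on either strand, in 12% of all promoters. The AP-1 letters TGAGTCA, or TGACTCA on the other strand, were present in 4.92% of all promoters and in 0 of these 10. These matches describe letters in the window and were not measured as bound sites.

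Plasma cell genes were abundant in every library: JCHAIN, the joining chain of secreted immunoglobulin, had 3478 to 5454 CPM, and TNFRSF17, the receptor BCMA, had 206 to 389 CPM. The mature B cell genes MS4A1, PAX5 and CD22 had 0 to 2 estimated counts in each library. BR SI-2 library 2 stood apart: COL1A1, a fibroblast collagen, had 1032 estimated counts there and 2 to 6 in the other 7 libraries. COL1A2 had 155 counts there and 0 to 4 elsewhere, PDGFRB 53 and 0 to 1, and VWF, an endothelial gene, 17 and 0 to 1. So 4 of the 5 stromal and endothelial markers were highest in that library, where the 5 summed to 153 CPM against 26.4 to 91.8 CPM elsewhere. PECAM1, the most abundant of the 5 in the other libraries, had 88.0 CPM in that library and 83.3 to 91.3 CPM in the other BR libraries. It separated the lines: every BR library lay above every WT library, and its log2 fold change of 1.29 between BR and WT passed the edgeR test described below. The part of these transcripts in the results was not tested, and values without that library are given where it bears on them.

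Mean FPKM over the 8 libraries set the order of levels among the 10 genes. GNAI2, which encodes the main Gi alpha subunit of leukocytes, was highest at 67.0 FPKM ± 5.65 (SD, n = 8). RGS16, whose product acts on Gi and Gq alpha subunits, followed at 43.2 FPKM ± 17.6 (SD, n = 8), and GNA13, the G13 subunit that signals to RhoA, at 28.6 FPKM ± 3.80 (SD, n = 8). RGS10, RGS2, RGS1 and GNAI3 lay close together, with mean levels of 17.6, 17.1, 16.8 and 16.6 FPKM and overlapping ranges. GNAO1 had a mean of 3.46 FPKM with a range from 1.02 to 10.6, RGS19 had 1.72 FPKM, and RGS13 was near 0 at 0.0225 FPKM. The ranges of neighbours in this order did not overlap between GNA13 and RGS10, between GNAI3 and GNAO1, and between RGS19 and RGS13. All other neighbours overlapped.

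**Figure D1:**
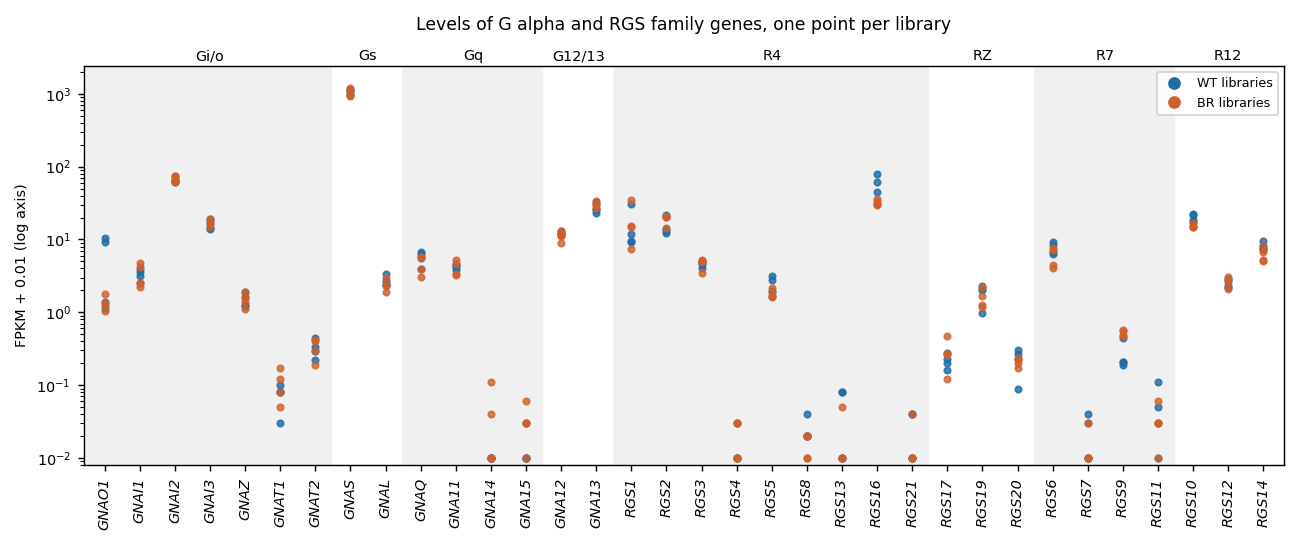
Levels of 15 G alpha genes and 19 RGS genes, grouped by family, with 1 point per library on a log axis of FPKM + 0.01 (WT blue, BR orange, 8 points a gene; a gene listed at 0 sits at 0.01). GNAS lies far above every other alpha subunit, and GNAO1 and RGS1 show wide columns of points beside narrow ones such as GNAI2 and GNA13.

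GNAO1 was high in 2 libraries and low in 6. Its level was 7.85 and 64.0 CPM in the WT vehicle libraries 1 and 2, and 6.54 and 54.8 CPM in the WT SI-2 libraries 1 and 2. The BR level was 10.9 and 6.37 CPM with vehicle and 8.06 and 5.57 CPM with SI-2. Both high values therefore came from the WT libraries numbered 2, whose estimated counts were 1157 and 985, while the other 6 libraries had 107 to 193. The 2 libraries of a condition differed 8.16-fold in WT vehicle and 8.37-fold in WT SI-2, but 1.71-fold in BR vehicle and 1.45-fold in BR SI-2, where library 1 was the higher. The totals of the 2 high libraries, 18279494 and 18248791 counts, lay inside the range of the others.

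Most reads of GNAO1 were assigned to NM_138736.2, 1 of the 3 GNAO1 transcripts listed. This transcript had 121.93, 1093.62, 112.46 and 930.40 estimated counts in WT vehicle 1 and 2 and WT SI-2 1 and 2, and 182.47, 103.09, 135.21 and 96.23 in the BR libraries in the same order. The second RefSeq transcript, NM_020988.2, had at most 53.3 counts. The rise in the 2 WT libraries thus lay in the transcript that led in all 8. GNAO1 counts were whole numbers in every library, as were those of RGS1, RGS2, RGS10, RGS13, RGS16 and RGS19, so no fractional share of a read was assigned to them at the gene level.

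Neural markers were compared because GNAO1 is abundant in neurons. The 7 markers summed to 20.03 and 18.3 CPM in the 2 libraries with high GNAO1 and to 19.3 to 35.8 CPM in the other 6. SYT1, a synaptic vesicle gene and the most abundant of the 7 in 8 of the 8 libraries, had 12.3 and 10.0 CPM in those 2 libraries. The neuronal gene RBFOX3 had at most 8.14 estimated counts in any library, and the glial genes GFAP and OLIG2 had at most 2 and 7.

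RGS1, a regulator that damps Gi and Gq signals downstream of chemokine receptors in lymphocytes, was high in a different pair of libraries. Its level was 13.2 and 13.2 CPM in the WT vehicle libraries and 42.5 and 17.0 CPM after SI-2 in the same line. The BR level was 10.5 and 20.1 CPM with vehicle and 49.4 and 20.4 CPM with SI-2. Both SI-2 libraries numbered 1 thus stood above the other 6, with 773 and 901 estimated counts against 185 to 392. The 2 libraries of a condition differed 2.51-fold in WT SI-2, 2.42-fold in BR SI-2 and 1.92-fold in BR vehicle, where library 2 was the higher, and were 1.01-fold apart in WT vehicle. Only 1 RGS1 transcript, NM_002922.3, was listed.

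**Figure D2:**
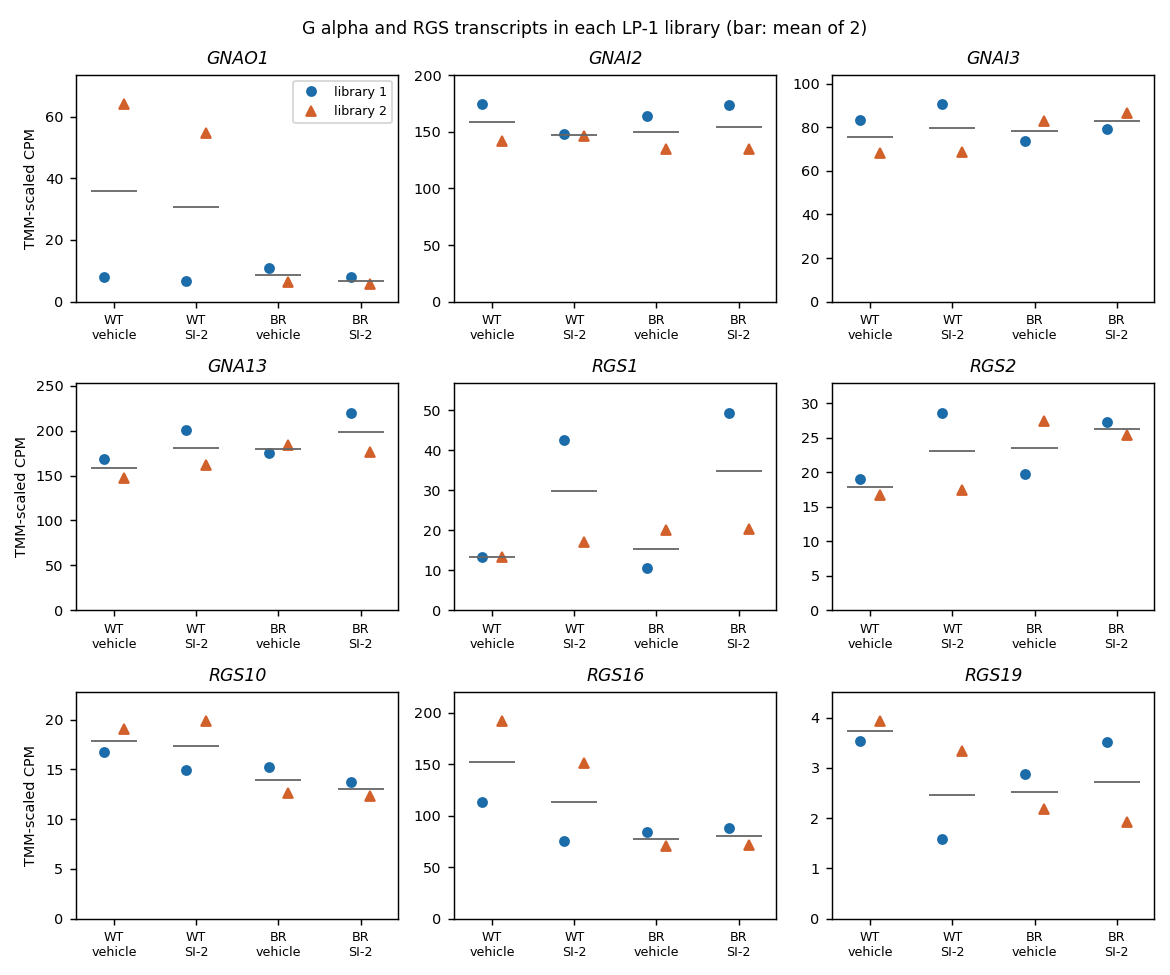
TMM-scaled CPM of the 9 genes with enough counts to test, in each of 8 libraries (circle library 1, triangle library 2, bar the mean of 2), each panel from 0. GNAO1 is high in the 2 WT libraries numbered 2, at 64.0 and 54.8 CPM, RGS1 in the 2 SI-2 libraries numbered 1, at 42.5 and 49.4 CPM, and GNAI2 and GNA13 vary little.

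For every gene, the log2 difference between the 2 libraries was taken in each condition and the largest of the 4 was kept. It was 3.04 for GNAO1 and 1.32 for RGS1, the measure on which both had been chosen, and its median over 13896 genes was 0.487. A difference over 1, which is over 2-fold, was found in 1710 genes (12.3%) and in 4 of the 9 members: RGS19 with 1.02 and RGS16 with 1.01 beside the 2 chosen genes. RGS2 had 0.71, RGS10 0.41, GNAI3 0.40, GNAI2 0.36 and GNA13 0.32. Among the 12 G alpha genes with enough counts, GNAO1 was the 1 with a difference over 1, and the median was 0.464. Among 11 RGS genes, 4 had one, and the median was 0.741.

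**Figure D3:**
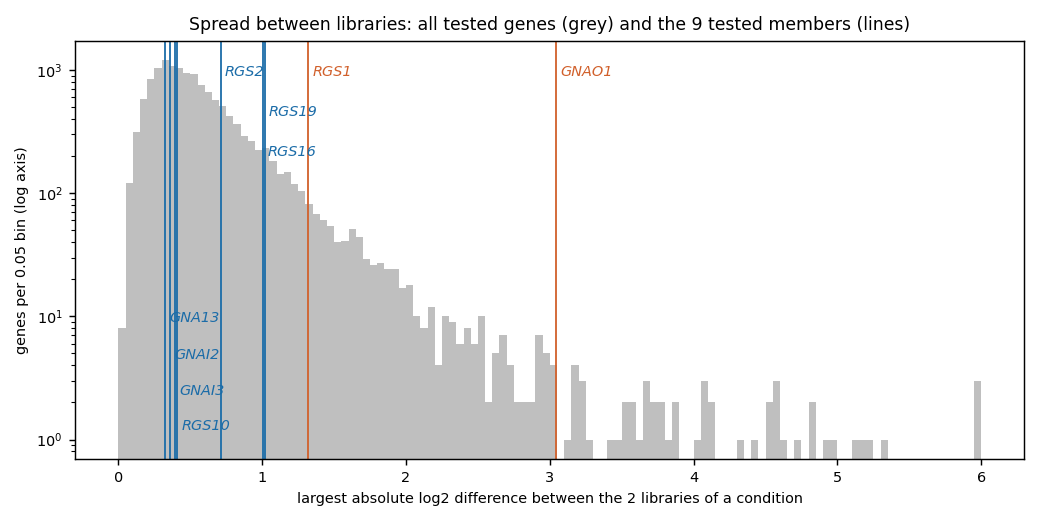
Histogram, on a log axis, of the largest absolute log2 difference between the 2 libraries of a condition over 13896 genes (grey), with lines at the 9 members and differences over 6 drawn at 6. GNAO1 at 3.04 lies in the far tail and RGS1 at 1.32 near its start, while GNA13, GNAI2, GNAI3 and RGS10 lie below the median of 0.487.

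The other alpha subunits moved within narrow limits. GNAI2 had 174 and 142 CPM in WT vehicle, 148 and 146 with SI-2 in that line, 164 and 135 in BR vehicle and 174 and 135 in BR SI-2. Library 1 was the higher of the pair in 4 of the 4 conditions, and the lines overlapped. GNAI3, a further Gi alpha subunit, had 83.2, 68.2, 90.6 and 68.9 CPM in WT vehicle 1 and 2 and WT SI-2 1 and 2, and 73.5, 82.8, 79.1 and 86.8 CPM in the BR libraries in that order. It was lowest in the 2 WT libraries in which GNAO1 was highest. GNA13 had 168, 148, 201 and 161 CPM in the WT libraries and 175, 184, 220 and 176 CPM in the BR libraries, again lowest in the WT libraries numbered 2.

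The remaining regulators divided in the same libraries. RGS16 had 113, 192, 75.4 and 152 CPM in WT vehicle 1 and 2 and WT SI-2 1 and 2, and 83.9, 70.2, 88.1 and 71.6 CPM in the BR libraries, so that it was highest where GNAO1 was. RGS10, a small regulator of Gi alpha subunits, had 16.7, 19.0, 14.95 and 19.8 CPM in WT and 15.2, 12.7, 13.8 and 12.4 CPM in BR, with the same 2 libraries on top. RGS2, which acts mainly on Gq, had 19.0, 16.8, 28.6 and 17.5 CPM in WT and 19.8, 27.4, 27.4 and 25.3 CPM in BR, with those 2 libraries lowest. RGS19, also called GAIP, had 3.53, 3.93, 1.59 and 3.34 CPM in WT and 2.88, 2.18, 3.51 and 1.92 CPM in BR and followed neither arrangement. RGS13, a regulator known from germinal centre B cells, was counted at 2, 0, 2 and 0 among the WT libraries and at 0, 1, 0 and 0 among the BR libraries. Each of these is under the 3 counts that a count of 0 allows, or 0.156 to 0.171 CPM by library, and RGS13 was not tested.

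Both WT libraries numbered 2 lay above the other 6 for 14.4% of the 13896 genes and for 3 of the 9 members, GNAO1, RGS10 and RGS16. They lay below the other 6 for 15.4% of the genes and for 3 members, GNAI3, GNA13 and RGS2. Both SI-2 libraries numbered 1 lay above the other 6 for 8.67% of the genes and for 2 members, RGS1 and GNA13. The choice of GNAO1 and RGS1 rested on these same differences, and nothing is read from these counts about the members.

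The 6 genes whose log2 CPM was most like that of GNAO1 over the 8 libraries, out of 11274 with a mean count of at least 50, were PYCR1 (Pearson's r 0.993), PTPRF (0.990), SH2B3 (0.989), PCBP4 (0.988), CPD (0.988) and RAVER2 (0.985). PYCR1, an enzyme of proline synthesis, had 258 and 259 CPM in the WT libraries numbered 2 and 157 to 188 CPM in the other 6. SH2B3, an adaptor that restrains cytokine receptor signalling, had 88.5 and 76.0 CPM there and 41.5 to 53.1 CPM elsewhere. These genes shared the arrangement of GNAO1 over libraries with smaller steps. Among the members, r with GNAO1 was 0.928 for RGS16 and 0.876 for RGS10, and -0.897 for GNAI3 and -0.805 for RGS2.

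The 6 genes most like RGS1 were RASSF1 (0.988), SLC25A20 (0.985), ATXN1 (0.982), GPHN (0.977), FAM53C (0.976) and HMGXB4 (0.976). RASSF1, a tumour suppressor, had 33.6 and 37.7 CPM in the SI-2 libraries numbered 1 and 20.4 to 27.0 CPM in the other 6. Among the members, r with RGS1 was 0.846 for GNA13 and 0.786 for RGS2, and r between RGS1 and GNAO1 was -0.402. All r values describe 8 points that share library, line and treatment.

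**Figure D4:**
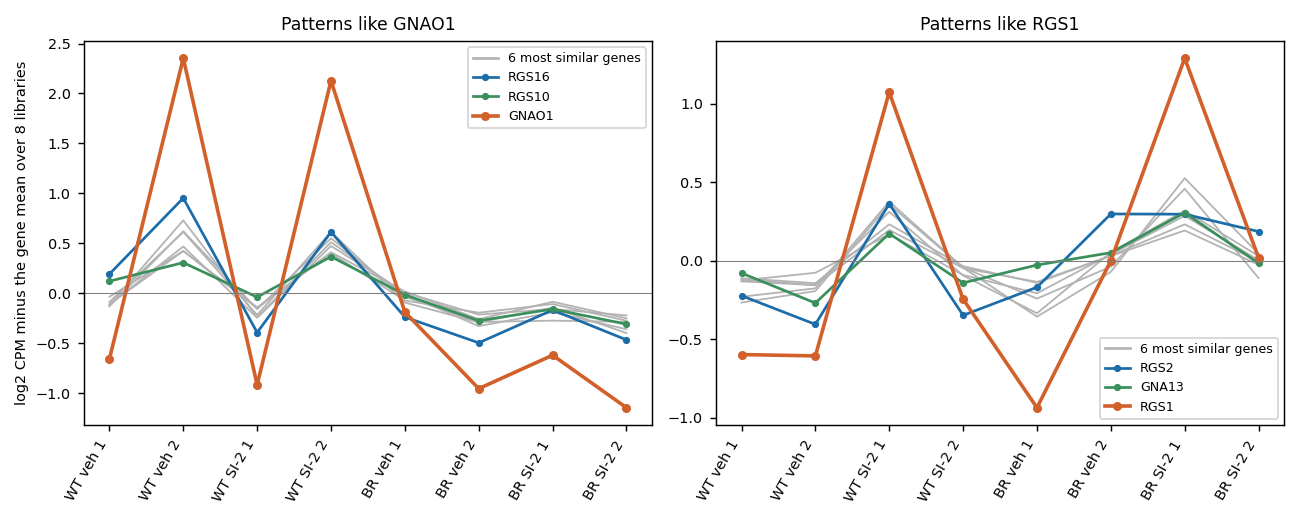
Log2 CPM minus each gene's own mean over the 8 libraries for GNAO1 with RGS16 and RGS10 (left) and RGS1 with RGS2 and GNA13 (right), with the 6 most similar genes in grey. GNAO1 peaks in both WT libraries numbered 2 and RGS1 in both SI-2 libraries numbered 1, and the grey lines repeat each shape with smaller steps.

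Neighbours on the chromosome were read in RefSeq gene order among genes of the table with enough counts to test. Near GNAO1, the genes CRNDE, IRX5, LPCAT2, NUDT21 and OGFOD1 had r values with it from -0.662 to 0.686. Near RGS1, r with it was 0.672 for PRG4, 0.0504 for TPR and 0.806 for ODR4 on one side, and 0.786 for RGS2, -0.557 for UCHL5 and 0.721 for TROVE2 on the other.

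Whether the resistant line differed from WT cells was tested on 4 libraries a side, vehicle and SI-2 together. Fewer cells with a transcript and less of it per cell cannot be told apart in these bulk libraries. The members showed no difference that passed the test: 0 of the 9 had an adjusted p under 0.05 by edgeR's quasi-likelihood test, against 49 of all 13520 genes (0.362%), of which 15 were higher and 34 lower in BR cells. No member separated the lines either: all 4 BR libraries lay below all 4 WT libraries for 0 of the 9 members and 4.36% of all genes, and above them for 0 of the 9 and 3.84% of all genes. At an unadjusted p under 0.05, 3 of the 9 members (GNAO1, RGS10 and RGS16) and 1942 of all genes (14.4%) were found.

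GNAO1 had a mean of 33.3 CPM ± 30.4 (SD, n = 4) in WT and 7.72 CPM ± 2.36 (SD, n = 4) in BR libraries. Its log2 fold change was -2.11 (SE 0.67, edgeR adjusted p = 0.214), and 2 of the 4 WT libraries lay among the BR libraries. The size depended on the fit: it was -1.54 with the replicate number as a block, and -1.08 and -1.35 by limma on log2(FPKM + 1) and log2(FPKM + 0.1), where none passed either. When the libraries of each number were taken alone, a split made after the data had been seen, the log2 fold change was 0.40 (SE 0.22) in libraries numbered 1 and -3.30 (SE 0.11) in libraries numbered 2. The first of these did not pass the test (edgeR adjusted p = 0.857), and since GNAO1 was chosen on differences between the numbers, both values restate its levels by library and are not read as separate results. Leaving out WT vehicle library 2 gave -1.58, and leaving out BR SI-2 library 2, the library with collagen transcripts, gave -1.98.

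RGS16 had 133 CPM ± 50.04 (SD, n = 4) in WT and 78.4 CPM ± 8.91 (SD, n = 4) in BR libraries, a log2 fold change of -0.76 (SE 0.23, edgeR adjusted p = 0.208). Without WT SI-2 library 1, its lowest WT library and inside the BR range, the value was -0.96 and passed the test (edgeR adjusted p = 0.0335). That omission also raised the genes called from 49 to 125. Leaving out any other single library gave RGS16 values from -0.83 to -0.53, none of which passed. Its log2 fold change was -0.13 (SE 0.20) in libraries numbered 1 and -1.26 (SE 0.094) in libraries numbered 2. RGS10 had a log2 fold change of -0.39 (SE 0.13, edgeR adjusted p = 0.224). The remaining 6 members had log2 fold changes between -0.24 for RGS19 and 0.29 for RGS2, with edgeR adjusted p-values from 0.493 to 0.987. RGS1 was among them with 0.22 (SE 0.48). Leaving out single libraries gave -0.46 to -0.11 for RGS19 and 0.20 to 0.49 for RGS2.

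With vehicle and SI-2 libraries of a line taken as replicates, the libraries numbered 2 alone gave 8 of the 9 members an edgeR adjusted p under 0.05, with GNAO1 and RGS1, chosen on differences between the numbers, among them, beside 45.5% of all 13698 genes. The libraries numbered 1 alone gave 0 of the 9, beside 0% of 13505 genes. GNAI2 was the exception in libraries numbered 2. The coefficient of variation beyond counting error, as edgeR's common dispersion gives it, was 0.0431 within the lines in libraries numbered 2 and 0.143 in libraries numbered 1, so that equal differences weigh more in the former. The p-values within a number rest on the spread between a vehicle and an SI-2 library, and whether those came from 1 culture is not stated.

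**Figure D5:**
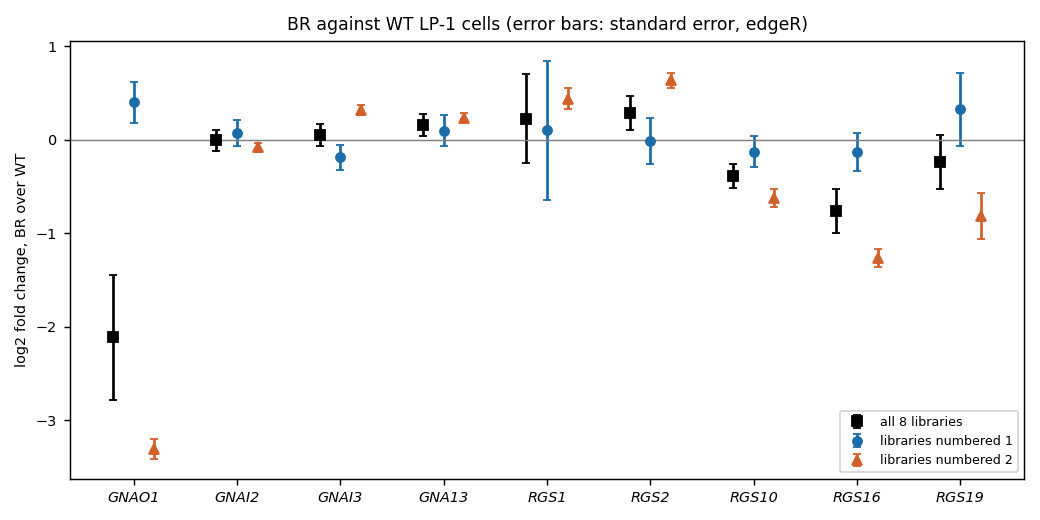
Log2 fold change of BR over WT for the 9 tested members, from all 8 libraries (black), from libraries numbered 1 (blue) and from libraries numbered 2 (orange), with the standard error of each estimate as the bar. For GNAO1 the estimate is 0.40 in libraries numbered 1 and -3.30 in libraries numbered 2, and RGS16, RGS10 and RGS19 also lie lower in the latter.

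Whether SI-2 changed the members was tested in each line on 2 libraries a side. RGS1 had a log2 fold change of 1.19 (SE 0.51) in BR cells and 1.17 (SE 0.52) in WT cells, with an edgeR unadjusted p of 0.0455 and 0.0495 and an adjusted p of 1 in both. Each SI-2 library exceeded the 2 vehicle libraries of its own line, which held for 1 of the 9 members and for 2.37% of the 13896 genes. That member was RGS1 itself, chosen on differences between libraries, so nothing is read from this count or from its unadjusted p-values. The size differed by number: SI-2 over vehicle was 3.21-fold in WT and 4.72-fold in BR libraries numbered 1, and 1.29-fold and 1.01-fold in libraries numbered 2. Without BR SI-2 library 1 the log2 fold change in BR cells was 0.41, and without WT SI-2 library 1 that in WT cells was 0.36. Without BR SI-2 library 2 it was 1.69 in BR cells.

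For GNAO1 the SI-2 library was below the vehicle library of the same number in 4 of 4 pairs, at 0.739 to 0.874 times its level. GNAI3, at 1.01 to 1.09 times, and RGS1, at 1.01 to 4.72 times, were above it in 4 of 4 pairs. The other members went both ways. The share of all genes with 1 direction in every pair was not counted, and pairing by number is not stated, so nothing is read from these pairs. The log2 fold change of GNAO1 was -0.34 (SE 1.04) in BR and -0.23 (SE 0.96) in WT cells, each with an edgeR adjusted p of 1. The other 7 members had SI-2 effects between -0.09 for RGS10 and 0.16 for RGS2 in BR cells, and between -0.60 for RGS19 and 0.36 for RGS2 in WT cells. Leaving out single libraries gave -1.22 to -0.16 for RGS19 in WT cells. No gene passed the test in either line (0 of 13896, 0%), with 167 genes (1.2%) in BR and 74 (0.533%) in WT cells at an unadjusted p under 0.05. The difference between the 2 SI-2 effects was also called for 0 of 13896 genes (0%), with 74 at an unadjusted p under 0.05, and for RGS1 it was 0.02 (SE 0.72). With 2 libraries a side these tests do not show that the members were unaffected.

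Among all alpha subunits, GNAS, the Gs subunit that stimulates adenylyl cyclase, had by far the highest level at 1062 FPKM. GNA12 had 11.7, GNAQ 5.12, GNA11 4.17 and GNAI1 3.35 FPKM, and GNA14 and GNA15 had at most 3 counts in every library. GNAI1, the Gi paralog nearest in level to GNAO1, did not share its arrangement: it had 8.47, 13.2, 10.5 and 12.1 CPM in WT and 7.63, 13.5, 8.61 and 14.9 CPM in BR libraries, higher in library 2 of each condition. GNAQ, the Gq subunit, had 39.4 and 37.9 CPM in the WT libraries numbered 2 and 18.5 to 33.1 CPM elsewhere. Those libraries were likewise on top for 14.4% of all genes. Of the 11 alpha subunits tested between the lines, 0 passed, 3 had a positive and 8 a negative log2 fold change, and the median was -0.075, beside 0.00416 over all genes.

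Of the 19 RGS genes in the table, 11 were tested between the lines and 0 passed, with a median log2 fold change of -0.24. RGS9, known from photoreceptors and striatum, lay higher in all 4 BR libraries but at a low level, 1.11 to 1.30 CPM against 0.332 to 0.934 CPM in WT. It was named for this, as 1 such gene of the 11, beside 3.84% of all genes. Its log2 fold change was 1.10 (edgeR adjusted p = 0.168). RGS6, a relative of RGS9 at a higher level, had 33.7, 42.6, 29.9 and 41.9 CPM in WT and 33.8, 21.2, 38.6 and 18.6 CPM in BR libraries. It was thus highest in the libraries with high GNAO1, as were 14.4% of all genes, and lowest in the BR libraries numbered 2. The 3 RhoGEFs with an RGS-like domain, through which G13 reaches RhoA, were also expressed, and ARHGEF12 led them at 72.9 FPKM.

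Partners of the alpha subunits gave a further view of the same libraries. GNG7, a gamma subunit, had 152, 60.8, 130 and 61.6 CPM in WT and 168, 119, 149 and 111 CPM in BR libraries, lowest where GNAO1 was highest. GNB1, the most abundant beta subunit, lay higher in all 4 BR libraries, 323 to 367 CPM against 273 to 318 CPM, with a log2 fold change of 0.19 that did not pass (edgeR adjusted p = 0.339). Such a separation was found for 1 of the 5 beta genes and 3.84% of all genes. ADCY1, an adenylyl cyclase that the Go and Gi class restrains, had 192 and 188 CPM in the WT libraries numbered 2 and 95.9 to 129 CPM elsewhere. Between the lines, 0 of 5 beta, 0 of 5 gamma, 0 of 7 adenylyl cyclase and 0 of 3 phospholipase C beta genes passed.

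Of 35 receptors for chemokines, lipids, nucleotides and other ligands in the table, 18 were tested between the lines and 0 passed. CXCR4 was the most abundant at 164 FPKM, with 190 to 351 CPM. CCR1, a receptor for CCL3, had 84.8 and 92.5 CPM in the WT libraries numbered 2 and 33.6 to 71.4 CPM elsewhere. Among 21 tested genes of the activation list, which holds genes that respond quickly to receptor signals, 2 passed, beside 0.362% of all genes. They were CCL3, a chemokine, with a log2 fold change of -2.61 (edgeR adjusted p = 0.0183), and SPRY4, an inhibitor of receptor tyrosine kinase signalling, with -1.30 (edgeR adjusted p = 0.0237). All 4 BR libraries lay below all 4 WT libraries for 6 genes of the list and 4.36% of all genes, and above them for 0 and 3.84%. The list was written with earlier results of these data known, so nothing is read from these counts about the list. JUN, a subunit of AP-1, had 357 and 513 CPM in the SI-2 libraries numbered 1 and 64.4 to 212 CPM elsewhere, which are the libraries in which RGS1 was highest. ATF3, another early response factor, had 65.0 and 52.3 CPM in the WT libraries numbered 2 and 9.78 to 25.7 CPM elsewhere. Of all genes, 14.4% were highest in the WT libraries numbered 2, as CCR1, ATF3 and GNAO1 were. The SI-2 libraries numbered 1 were highest for 8.67%, as for JUN and RGS1, so nothing is read from these matches.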

How the data were processed

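RNA was sequenced on the BGISEQ-500 platform. The submitters' processing notes name BWA, Bowtie2, RSEM and hg19, and their versions are not given in the sources used here. The authors deposited estimated counts per gene and per transcript, in which reads shared between transcripts are divided, and FPKM values, the unit inferred for those columns from their values. Counts were rounded before testing. The authors' comparisons (DEGseq log2 fold changes and p-values) and 8 columns of condition averages in each table were not used.

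Library totals ran from 17997771 to 18570027 counts, and p-values and floors cover only the spread between these libraries and counting error. Genes were filtered with filterByExpr, scaled by TMM (factors 0.971 to 1.058) and tested in edgeR 4.0.16 (quasi-likelihood, glmQLFTest, with Benjamini-Hochberg adjustment over all genes): 13520 genes for BR against WT (2 groups of 4) and 13896 for the SI-2 effects and their difference (1 fit over 4 conditions). Standard errors were computed from the fold change and its F statistic. Replicates are named only by number in the labels. Log2 CPM used a prior count of 2. The fits were tested on simulated data.

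The members, gene lists and tests were chosen with earlier results of these data known. Named were the members, the most abundant and most variable genes of each list, genes whose lines did not overlap, the 6 genes most like GNAO1 or RGS1, and up to 3 neighbours a side, of which 1 is not reported here. Further genes of the lists (GNAI1, GNAQ, RGS6, CCR1, ATF3 and RGS9 among them) were named after their values were seen. Of 18564 gene identifiers, 18267 were found in RefSeq GRCh38.p14, used for names, gene order and promoters only. Alternatives were upper-quartile or library size scaling, other filters, a replicate block, DESeq2 1.42.0, condition terms, limma 3.58.1 on log2(FPKM + 1) and log2(FPKM + 0.1), each library left out, and, added after the data had been seen, the libraries of each number alone. The work used R 4.3.3, Python 3.11.15, pandas 2.3.3, numpy 2.4.6 and matplotlib 3.10.9.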

Additional observations from a re-analysis of the deposited data

Results flagged for a closer look

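Within the 4 libraries of a line, 1 member had a library far from the other 3 by Dixon's criterion, which chance meets in about 1 of 20 groups, and 14 groups were examined. GNAI2 had 174.46 CPM in WT vehicle library 1, against 142 to 148 CPM in the other WT libraries. GNAO1 and RGS1 were not examined in this way, since both had been chosen on differences between libraries.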

How the results depend on the processing

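The count of genes called between BR and WT was 49, and depended on the fit: 155 with the replicate block, 399 with DESeq2, 18 with condition terms, 0 in libraries numbered 1 and 6232 in libraries numbered 2, with 8 members called in the last. Leaving out each library gave 21 to 125 genes and 0 to 1 member (RGS16). The count moved over 1.5 times without WT vehicle 2 (27), WT SI-2 1 (125), WT SI-2 2 (21), BR vehicle 1 (86), BR vehicle 2 (24), BR SI-2 1 (29) or BR SI-2 2 (32). DESeq2 called 1 gene for SI-2 in BR, 1 in WT and 1 for their difference, none a member, and leaving out a library gave 0 to 67 genes for SI-2 in BR (67 without BR SI-2 1, where the lone library is assumed to vary like the others). The causes were not tested.

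Over genes, the difference between libraries 2 and 1 correlated between vehicle and SI-2 of a line (r 0.436 in WT, 0.373 in BR) and less between conditions of the 2 lines (-0.121 to 0.196). Pairing by number was not taken as shown across the 4 conditions, since 1 of the 6 values was below 0, and the sources used here do not state it. The block changed no call of a member.

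The log2 fold changes of several members, GNAO1 (-2.11) among them, turned in sign. For BR against WT, GNAI2 (-0.0055) was 0.021 with library size scaling and 0.019 in both FPKM fits, and in libraries numbered 1 GNAO1 was 0.40, GNAI2 0.069, GNAI3 -0.19, RGS2 -0.017 and RGS19 0.32. Leaving out single libraries gave -0.075 to 0.065 for GNAI2, -0.0045 to 0.13 for GNAI3 and -0.34 to 0.79 for RGS1. For SI-2 in BR it gave -0.68 to 0.080 for GNAO1, -0.15 to 0.22 for GNAI2, -0.011 to 0.17 for GNAI3, -0.036 to 0.29 for GNA13, -0.070 to 0.41 for RGS2, -0.22 to 0.029 for RGS10, -0.11 to 0.19 for RGS16 and -0.40 to 0.47 for RGS19. For SI-2 in WT it gave -2.45 to 1.97 for GNAO1, -0.24 to 0.047 for GNAI2, -0.14 to 0.26 for GNAI3, -0.037 to 0.68 for RGS2, -0.25 to 0.15 for RGS10 and -1.01 to 0.0064 for RGS16. None of these passed the test.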
